A study of Mus with 3 samples.

Results

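The genes described here are 3 alarmin cytokines, Il33, Tslp and Il25, and 5 chains of their receptors, Il1rl1, Il1rap, Crlf2, Il17rb and Il7r. These 8 genes were taken by symbol from the 27998 genes of the count matrices. Alarmins are cytokines that barrier and stromal cells release on damage or allergen exposure, and they act on lymphocytes and myeloid cells of the type 2 response. IL-33, a nuclear cytokine of the IL-1 family, binds ST2, the product of Il1rl1, which then pairs with the shared accessory chain Il1rap. TSLP binds a receptor made of the Crlf2 and Il7r products, and Il7r is also a chain of the receptor for IL-7. IL-25, which tuft cells are known to make in mucosa, binds a receptor made of the Il17rb and Il17ra products.

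Whole-lung cells were profiled by droplet single-cell RNA sequencing in 3 libraries, each from cells pooled from 3 female mice aged 6 to 12 weeks. WT PBS held cells of wild-type mice challenged with saline, WT OVA cells of wild-type mice challenged with ovalbumin, an egg-white protein used to set off allergic airway inflammation, and DJ-1 KO OVA cells of ovalbumin-challenged mice without DJ-1, the product of Park7. Each group was 1 library, so mice cannot be told apart, no difference has a replicate check and no test was possible. A knockout library challenged with PBS is not among the groups, so the effect of the genotype without ovalbumin was not analysed here. WT OVA served as the reference for the knockout and as the challenged group against WT PBS, so the comparisons share it.

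The saline, ovalbumin and knockout libraries held 4556, 6406 and 4666 barcodes with 26548669, 24438516 and 17339386 unique molecular identifiers (UMIs, counted molecules). After filtering, 3855, 5930 and 4438 cells were kept, with median depths of 4093, 2060.5 and 1653 UMIs per cell. WT PBS and DJ-1 KO OVA shared 372 cell barcodes, against 6 and 5 for the other pairs of libraries, and the cell with fewer UMIs of each such pair was left out. Park7 stood at 136, 100 and 20.8 CPM (UMIs of a gene per 1000000 UMIs of the named cells) in the order above. It was lowest in the library labelled knockout but not at 0, and the labels do not say which part of the gene was deleted. Thymocyte-like cells, which are not residents of lung tissue, made up 0.752%, 0.169% and 19.0% of kept cells, so levels over all cells also moved with this share. All levels below are in CPM, and intervals in brackets are 95% intervals for counting error only. Values set in threes follow the order saline, ovalbumin, knockout.

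Over all kept cells, Il33 and its receptor chain Il1rl1 were highest in the knockout library, and Tslp did not differ between libraries beyond counting error. Il33 was counted 1698, 2376 and 4394 times, which is 69.3 (66.1 to 72.7), 104 (99.5 to 108) and 258 (250.0 to 265) CPM. Il1rl1 was counted 278, 706 and 1314 times, or 11.4, 30.8 and 77.1 CPM. Both genes therefore stood in the order PBS, OVA, knockout with intervals that did not overlap. A gene was called at a ratio of at least 2 or at most 0.5 with at least 20 UMIs over both libraries.

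In WT OVA against WT PBS, 1 of the 7 members with enough UMIs was called higher, Il1rl1 at 2.71 (2.36 to 3.13), and 0 were called lower. Among all 14947 genes measured in that comparison, 3.17% were called higher and 2.42% lower. In the knockout against WT OVA, 3 of 7 were called higher and 0 lower, against backgrounds of 5.26% and 3.38% of 14710 genes. These were Il33 at 2.49 (2.37 to 2.62), Il1rl1 at 2.5 (2.28 to 2.75) and Il17rb at 2.78 (1.91 to 4.1). With both cells of every shared barcode left out, the 3 ratios were 2.25, 3.69 and 4.02. Against WT PBS, the WT OVA levels of Crlf2 and Il7r over all kept cells were lower, at 0.658 (0.606 to 0.714) and 0.676 (0.644 to 0.709). Neither reached the 2-fold limit.

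Among the senders, Il33 was mainly a transcript of alveolar type 2-like cells, the surfactant-making cells of the alveolus. The gene lies on chromosome 19 from 29925113 to 29960718 in mm10. Alveolar type 2-like cells were named from 7 markers, among them Sftpc, at 165752, 122713 and 86868 CPM in them against 1052, 1106 and 361 CPM in other cells. They held 80.9%, 85.7% and 92.2% of all Il33 UMIs, although they were only 7.86%, 13% and 6.67% of the cells. Mesothelial-like cells, which line the lung surface, held 5.95%, 7.53% and 2.3%. Adventitial fibroblast-like cells, the stromal cells around airways and vessels, held 7.95%, 3.07% and 2.07%.

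**Figure D1:**
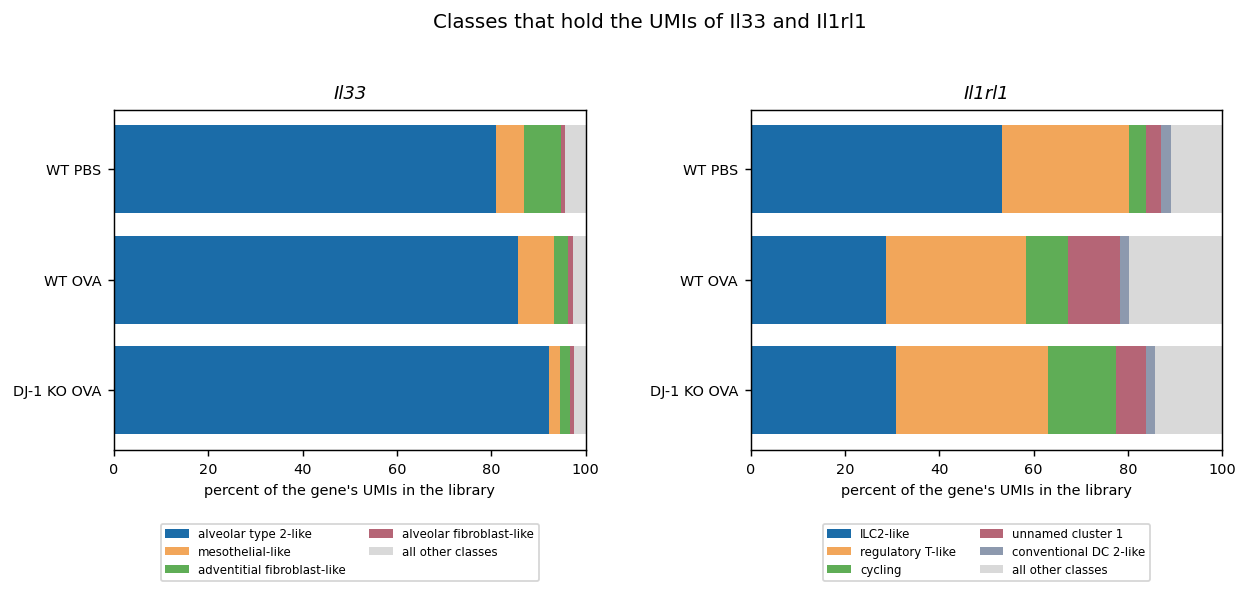
Share of all UMIs of Il33 (left) and Il1rl1 (right), in percent of the gene's UMIs in each library, held by each cell class; colours name the classes and the grey segment all others. Alveolar type 2-like cells held 80.9% to 92.2% of Il33 UMIs, and ILC2-like with regulatory T-like cells held most Il1rl1 UMIs in every library.

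In alveolar type 2-like cells, Il33 stood at 338 (321 to 357), 374 (358 to 391) and 1502 (1456 to 1549) CPM in 303, 769 and 296 cells. The PBS and OVA libraries were close, at a ratio of 1.11 (1.03 to 1.19), and the knockout library was higher than WT OVA by 4.01-fold (3.8 to 4.23). Of the cells, 83.5%, 75.6% and 92.6% had at least 1 Il33 UMI. With every cell thinned to 1000 UMIs, so that depth no longer differs, the shares were 21.3%, 26.2% and 62.7%. In B-like cells, a class that should lack the gene, 0.159%, 0.217% and 1.83% of cells had an Il33 UMI at median depths of 2979.5, 1292 and 1104 UMIs, against 13926, 6922 and 9225.5 in alveolar type 2-like cells. The median alveolar type 2-like cell held 3, 2 and 10 Il33 UMIs. The tenth of cells with most Il33 held 36.9%, 42.1% and 33.2% of the class's Il33 UMIs, so the transcript was not confined to a few cells in any library.

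The class was made of 3 clusters, and their shares differed between libraries. Cluster 16, led by Chia1 and Slc26a4, made up 0.33%, 9.75% and 75.3% of alveolar type 2-like cells. The members were left out of the genes used for clustering, but this cluster was singled out because Il33 was among its 10 leading genes. Within each cluster the knockout library was also higher than WT OVA, by less than over the whole class. In cluster 7, Il33 stood at 383, 344 and 970 CPM, and the ratio of knockout to WT OVA was 2.82 (2.33 to 3.39). In cluster 13 it stood at 256, 346 and 950 CPM, a ratio of 2.75 (2.4 to 3.14). In cluster 16 it stood at 565 CPM in WT OVA and 1619 CPM in the knockout, a ratio of 2.86 (2.59 to 3.18), with only 1 cell in WT PBS. Clusters 7 and 13 held 33 and 40 knockout cells, fewer than the 50 asked of a class elsewhere. Outside cluster 16, the levels were 339, 345 and 956 CPM, and WT OVA against WT PBS was 1.02 (0.946 to 1.09). Within WT OVA alone, cluster 16 exceeded the rest of the class, at 565 (512 to 622) against 345 (328 to 362) CPM, and within the knockout it did so at 1619 (1567 to 1673) against 956 (870 to 1047). As the cluster was picked for its Il33, this excess is not independent of that choice.

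**Figure D2:**
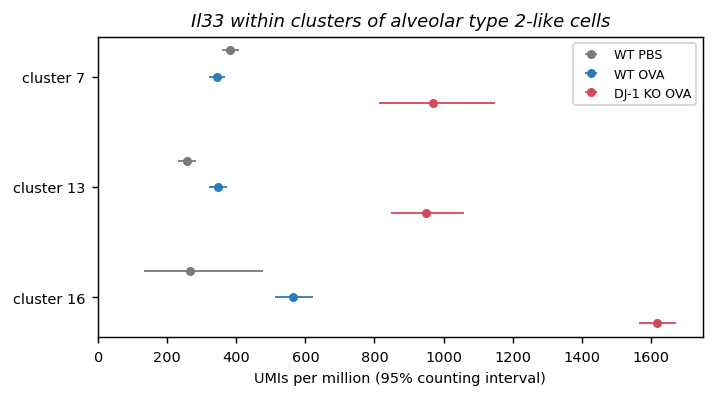
Il33 in CPM (x axis) in each of the 3 clusters of alveolar type 2-like cells (y axis), 1 point per library with its 95% counting interval. The knockout library lies above WT OVA in every cluster, at 970, 950 and 1619 against 344, 346 and 565, and the WT PBS point of cluster 16 rests on 1 cell.

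The ratios in other Il33 senders were smaller or below 1. In mesothelial-like cells Il33 stood at 223 (182 to 271), 241 (207 to 279) and 162 (132 to 197) CPM in 33, 105 and 69 cells, and the ratio of knockout to WT OVA was 0.672 (0.522 to 0.863). The summed level of 7 alveolar type 2 markers in the same cells was 313, 407 and 1000 CPM, highest where Il33 was lowest. In adventitial fibroblast-like cells it stood at 128 (107 to 152), 92.7 (72.6 to 117) and 172 (139 to 212) CPM, a ratio of 1.86 (1.35 to 2.57) in the knockout and of 0.723 (0.536 to 0.968) in WT OVA against WT PBS. Most of it came from cluster 19 of that class, at 200, 165 and 258 CPM. Cluster 31 stood at 16, 6.12 and 14 CPM on 5, 2 and 2 UMIs in 32, 67 and 20 cells. Alveolar fibroblast-like cells, the stromal cells of the alveolar wall, were lower, at 8.32, 17.3 and 40.6 CPM on 13, 23 and 38 UMIs. In the knockout, mesothelial-like and adventitial fibroblast-like cells could not be ordered, as their intervals overlapped. Goblet-like and club-like cells of the airway held 0 Il33 UMIs in the knockout and at most 8 in the other libraries.

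In neutrophil-like cells of WT PBS, 24 of 27 Il33 UMIs lay in 1 cell, and in erythroid-like cells of the knockout all 31 lay in 1 cell. Classical monocyte-like cells held 2, 17 and 15 Il33 UMIs beside a summed alveolar type 2 marker level of 3854, 9200 and 6004 CPM. The part of transcripts from alveolar type 2 cells in these values was not tested.

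Tslp was a stromal transcript at low level and showed no difference between libraries larger than counting error. Alveolar fibroblast-like cells held 35, 28 and 22 UMIs, or 22.4 (15.6 to 31.2), 21.1 (14.0 to 30.5) and 23.5 (14.7 to 35.5) CPM. Their ratios were 0.941 (0.552 to 1.59) for WT OVA against WT PBS and 1.11 (0.607 to 2.02) for the knockout against WT OVA. A change of up to about those bounds was not detectable at this depth. Adventitial fibroblast-like cells stood at 14.2, 14.0 and 20.8 CPM. These classes together held most of the 59, 58 and 45 Tslp UMIs of the libraries. Goblet-like cells, the mucus-secreting cells of the airway, held 1, 7 and 8 Tslp UMIs in 23, 57 and 74 cells. Alveolar type 2-like cells held 1, 1 and 0, so Tslp and Il33 were counted mainly in different classes.

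Il25 had 0 UMIs in every library, which allows at most 0.123, 0.131 and 0.176 CPM when 3 UMIs are taken as the limit of a count of 0. No kept cell held UMIs of at least 3 of the 8 tuft cell markers. Chat, 1 of the 8, was at 0 in all libraries, while Pou2f3 had 5, 7 and 1 UMIs and Avil 14, 8 and 15 over all kept cells. Il25 was thus not detectable at this depth, and whether the libraries held a tuft cell of low depth was not tested.

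**Figure D3:**
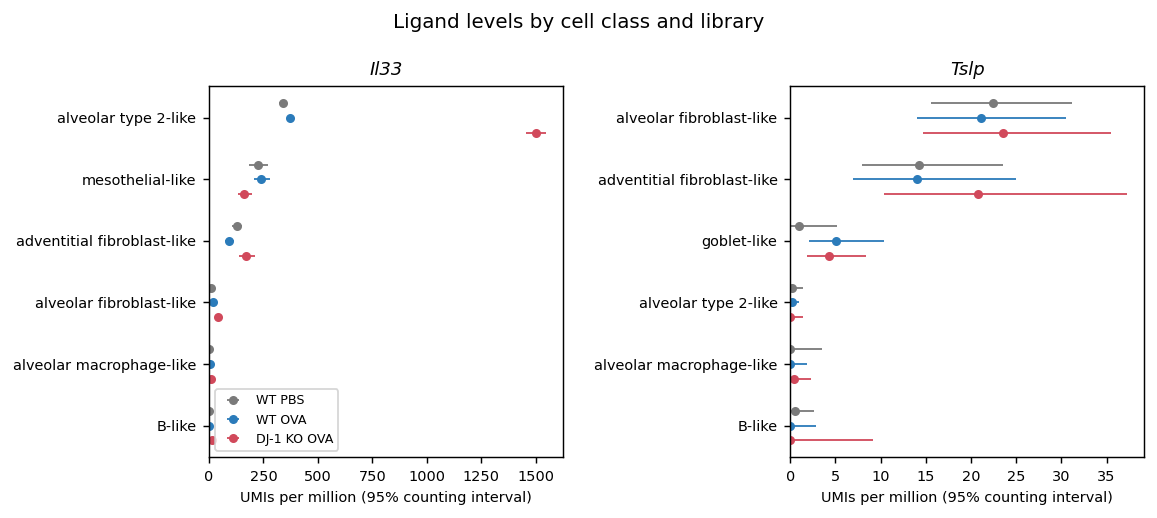
Levels of Il33 (left) and Tslp (right) in CPM (x axis) by cell class (y axis), 1 point per library with its 95% counting interval. Il33 reached 1502 in alveolar type 2-like cells of the knockout against 338 and 374 in the other libraries, while the Tslp intervals of the libraries overlap in each class shown.

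Among the receivers, Il1rl1 was concentrated in lymphocytes of the type 2 and regulatory kinds. The gene lies on chromosome 1 from 40404864 to 40465418, and its count joins the transcripts of the membrane receptor and of its soluble decoy form. ILC2-like cells, or group 2 innate lymphoid cells, tissue lymphocytes without an antigen receptor, were marked by Gata3 at 1842, 1612 and 2526 CPM. In all other cells Gata3 stood at 29.8, 43.1 and 110 CPM, but knockout regulatory T-like cells without a Foxp3 UMI reached 1871 CPM. The other listed markers were also above other cells in each library, except Nmur1, at 6.37, 0 and 0 CPM. Kcnn4 stood at 44.6, 80.9 and 172 against 27.5, 33.5 and 64.8 CPM. ILC2-like cells held 53.2%, 28.6% and 30.9% of Il1rl1 UMIs, and regulatory T-like cells, marked by Foxp3 at 234, 478 and 407 CPM, held 27.0%, 29.7% and 32.1%. ILC2-like cells were 0.908%, 0.944% and 1.71% of kept cells, and regulatory T-like cells 0.778%, 1.89% and 3.0%. The knockout library thus held larger shares of both classes. As given below, its Il1rl1 level was also higher in both. In regulatory T-like cells that difference from WT OVA lay in cells without a Foxp3 UMI.

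In ILC2-like cells Il1rl1 stood at 943 (798 to 1108), 1258 (1090 to 1443) and 2249 (2036 to 2479) CPM in 35, 56 and 76 cells. The knockout exceeded WT OVA by 1.79-fold (1.51 to 2.13), and WT OVA exceeded WT PBS by 1.33-fold (1.07 to 1.66) on 35 PBS cells. An Il1rl1 UMI was found in 91.4%, 85.7% and 97.4% of ILC2-like cells, and after thinning in 51.4%, 69.1% and 85.3%. B-like cells had it in 0.159%, 0.217% and 0.0%. A few cells of the class had a Cd3 UMI, 9, 10 and 11. Among those without, Il1rl1 stood at 849, 1458 and 2489 CPM, with ratios of 1.72 (1.33 to 2.22) for WT OVA against WT PBS and 1.71 (1.42 to 2.05) for the knockout against WT OVA. Among the few with a Cd3 UMI it stood at 1178, 559 and 1309 CPM, and the same ratios were 0.474 (0.269 to 0.807) and 2.34 (1.36 to 4.17). The ovalbumin ratios of wild-type lungs thus lay on opposite sides of 1 in these subsets, while the knockout was above WT OVA in both. The subset with a Cd3 UMI had only 9, 10 and 11 cells, fewer than asked of a class. Its intervals cover counting error only, and a cell without a Cd3 UMI may still express Cd3. The difference between the subsets was not tested.

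In regulatory T-like cells the order of the libraries was alike, at 351 (276 to 440), 601 (522 to 688) and 1109 (1006 to 1220) CPM in 30, 112 and 133 cells. The knockout exceeded WT OVA by 1.85-fold (1.56 to 2.19). That difference lay in cells without a Foxp3 UMI. In cells with one, Il1rl1 stood at 425 (324 to 549), 695 (588 to 817) and 725 (601 to 867) CPM in 18, 67 and 68 cells, and the knockout to WT OVA ratio was 1.04 (0.812 to 1.34). In cells without one, it stood at 213 (122 to 346), 454 (348 to 582) and 1405 (1251 to 1573) CPM in 12, 45 and 65 cells, a ratio of 3.1 (2.35 to 4.14). The cells without a Foxp3 UMI in the knockout also held Il13, the type 2 cytokine, in 18 of 65 cells, against 2 of 45 in WT OVA, and Gata3 at 1871 against 819 CPM. No cell with a Foxp3 UMI held Il13 in any library. A cell without a UMI may still express Foxp3, so the split does not separate cell types, and it was chosen after these values were seen.

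**Figure D4:**
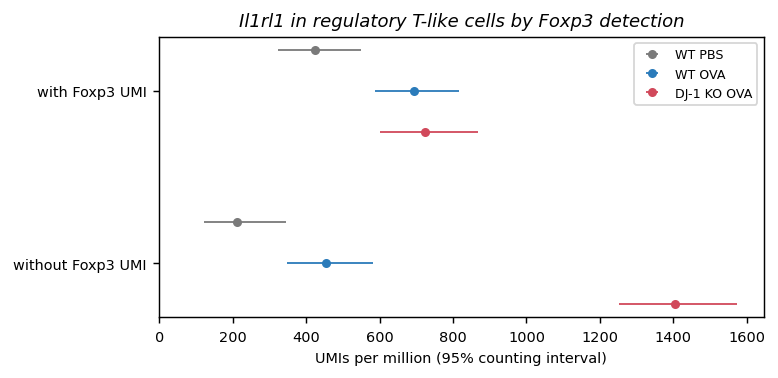
Il1rl1 in CPM (x axis) in regulatory T-like cells with and without a Foxp3 UMI (y axis), 1 point per library with its 95% counting interval. In cells with a Foxp3 UMI the WT OVA and knockout points lie at 695 and 725; in cells without one they lie at 454 and 1405.

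Outside these classes Il1rl1 was lower. In cycling cells it stood at 16.9, 115 and 285 CPM in 40, 59 and 92 cells, and in an unnamed cluster led by Icos, Cd28 and Ctla4 at 9.98, 97.3 and 137 CPM. In the unnamed cluster WT OVA exceeded WT PBS by 9.75-fold (4.88 to 22.1) on 78 and 9 UMIs. CD4 T-like cells held 0, 1 and 6 UMIs in 513, 672 and 408 cells. CD8 T-like cells held 4, 16 and 0 in 167, 275 and 239 cells. In WT OVA against WT PBS the level was higher in all 12 classes with at least 50 cells in both libraries, most of them on fewer than 20 UMIs. In the knockout against WT OVA it was higher in 11 of 18 such classes and lower in 7. Those lower had few UMIs, at most 16 in WT OVA, as in CD8 T-like cells, or 15 against 2 in classical monocyte-like cells. In alveolar type 2-like cells Il1rl1 had 25 UMIs in 8 knockout cells against 8 UMIs in 4 WT OVA cells, a ratio of 6.3 (2.75 to 16.2). Of these UMIs, 13 and 5 lay in 1 cell each, and without both cells the ratio was 8.08 (2.18 to 44.6) on 12 against 3 UMIs. T cell markers moved there too: the 6 CD4 T markers summed to 27.8, 12.7 and 49.7 CPM, all 6 detected in each library. Crlf2, at 2.96, and Il7r, at 2.94, were likewise higher in those cells of the knockout, so that 4 of 5 members measured there were called higher and 0 lower, against 7.93% and 2.7% of 10682 genes. The part of lymphocyte RNA in them was not tested.

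Il1rap, the accessory chain shared with the receptors for IL-1 and IL-36, was highest in neutrophil-like cells rather than in the cells with most Il1rl1. It stood there at 157 (141 to 174), 251 (222 to 283) and 415 (337 to 506) CPM in 609, 644 and 214 cells. The ratios were 1.6 (1.36 to 1.88) and 1.66 (1.3 to 2.1), and the second was 1.24 when each cell was thinned to 1000 UMIs. The class lay in different clusters in each library, cluster 10 holding 59.9%, 24.4% and 5.61% of its cells and cluster 2 holding 24.8%, 66.8% and 92.5%. In cluster 2 Il1rap stood at 183, 327 and 429 CPM, with ratios of 1.79 (1.35 to 2.38) and 1.31 (1.01 to 1.7). In cluster 10 it stood at 185 and 217 CPM in the wild-type libraries, a ratio of 1.17 (0.886 to 1.54), with 12 knockout cells. In cluster 30, it stood at 97.7 and 60.5 CPM on 40 and 8 UMIs in 79 and 49 cells, a ratio of 0.619 (0.25 to 1.34). Il1rap thus differed between libraries within cluster 2, and the part of the cluster shares in the class ratios was not tested. Alveolar fibroblast-like cells stood at 37.8, 37.6 and 42.7 CPM with no difference beyond counting error. ILC2-like cells held 3, 2 and 2 Il1rap UMIs, and a UMI of both chains was seen in 3 of 35, 2 of 56 and 2 of 76 cells. In regulatory T-like cells both were seen in 1 of 30, 2 of 112 and 4 of 133. At these depths a low transcript is missed in most cells, so the counts do not show that the chains are absent together.

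Of the TSLP receptor chains, Crlf2 was spread over myeloid and lymphoid classes. It was highest in neutrophil-like cells, at 192 (175 to 212), 147 (125 to 172) and 136 (92.8 to 191) CPM, and in conventional DC 2-like cells, antigen-presenting cells on which TSLP is known to act, at 154, 112 and 87.3 CPM in 28, 90 and 69 cells. The intervals of those classes overlapped in every library. In ILC2-like cells it was alike in all libraries, at 63.7, 62.3 and 55.4 CPM on 10 UMIs each. The knockout was lower than WT OVA in 14 of the 17 classes with at least 20 UMIs, and in 14 of all 18 with at least 50 cells. The 17 had a median ratio of 0.843, but in only 3 did the interval lie below 1; in 1, alveolar type 2-like cells, it lay above. The lowest was CD8 T-like cells, at 43.0, 53.3 and 18.9 CPM, a ratio of 0.355 (0.15 to 0.756). In WT OVA against WT PBS, 9 of 12 classes were lower, 4 of them with the interval below 1, among them neutrophil-like cells at 0.762 (0.63 to 0.918).

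Il7r, on chromosome 15 from 9506159 to 9529941, was highest in gamma delta or type 17 T-like cells, at 1319 (1199 to 1448), 1068 (946 to 1202) and 989 (821 to 1182) CPM. ILC2-like cells followed at 912, 728 and 820 CPM, and CD4 T-like cells at 757 (723 to 793), 658 (615 to 703) and 571 (514 to 633) CPM. The intervals of ILC2-like and CD4 T-like cells overlapped except in the knockout. In CD4 T-like cells the ratio of WT OVA to WT PBS was 0.869 (0.801 to 0.943) and that of knockout to WT OVA 0.868 (0.765 to 0.982), while the median gene there stood 0.11 and 0.18 higher on the log2 scale. Over all kept cells, the knockout stood at 0.889 (0.837 to 0.944) of WT OVA, a direction that turned to 1.3 with both cells of each shared barcode left out and to 1.12 with cells thinned to 1000 UMIs. NK-like cells stood at 40.5, 13.6 and 75.6 CPM on 87, 16 and 42 UMIs, and neutrophil-like cells, which should lack the gene, at 7.3, 6.63 and 50.9 CPM. Alveolar macrophage-like cells held Il7r in 18.6%, 19.7% and 26.0% of cells, against 1.31%, 0.621% and 1.4% of neutrophil-like cells, with median depths of 17163, 10371.5 and 5959 UMIs against 2970, 1331.5 and 983.5. After thinning, the macrophage shares were 7.02%, 8.29% and 6.78%. Both TSLP receptor chains were seen in 8 of 35, 8 of 56 and 7 of 76 ILC2-like cells.

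Il17rb, the IL-25 receptor chain, was rare, with 32, 43 and 89 UMIs over all kept cells. ILC2-like cells stood highest, at 95.6 (53.5 to 158), 49.8 (21.5 to 98.1) and 111 (67.7 to 171) CPM on 15, 8 and 20 UMIs. The ratio of 2.22 (0.939 to 5.84) between knockout and WT OVA had an interval that included 1, although it was past the 2-fold limit, as were 7.48% of 2675 genes upward in these cells. Gamma delta or type 17 T-like cells stood at 21.0, 26.9 and 57.2 CPM on 7 UMIs in each library. In the knockout, thymocyte-like cells held 17 of the 89 UMIs.

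**Figure D5:**
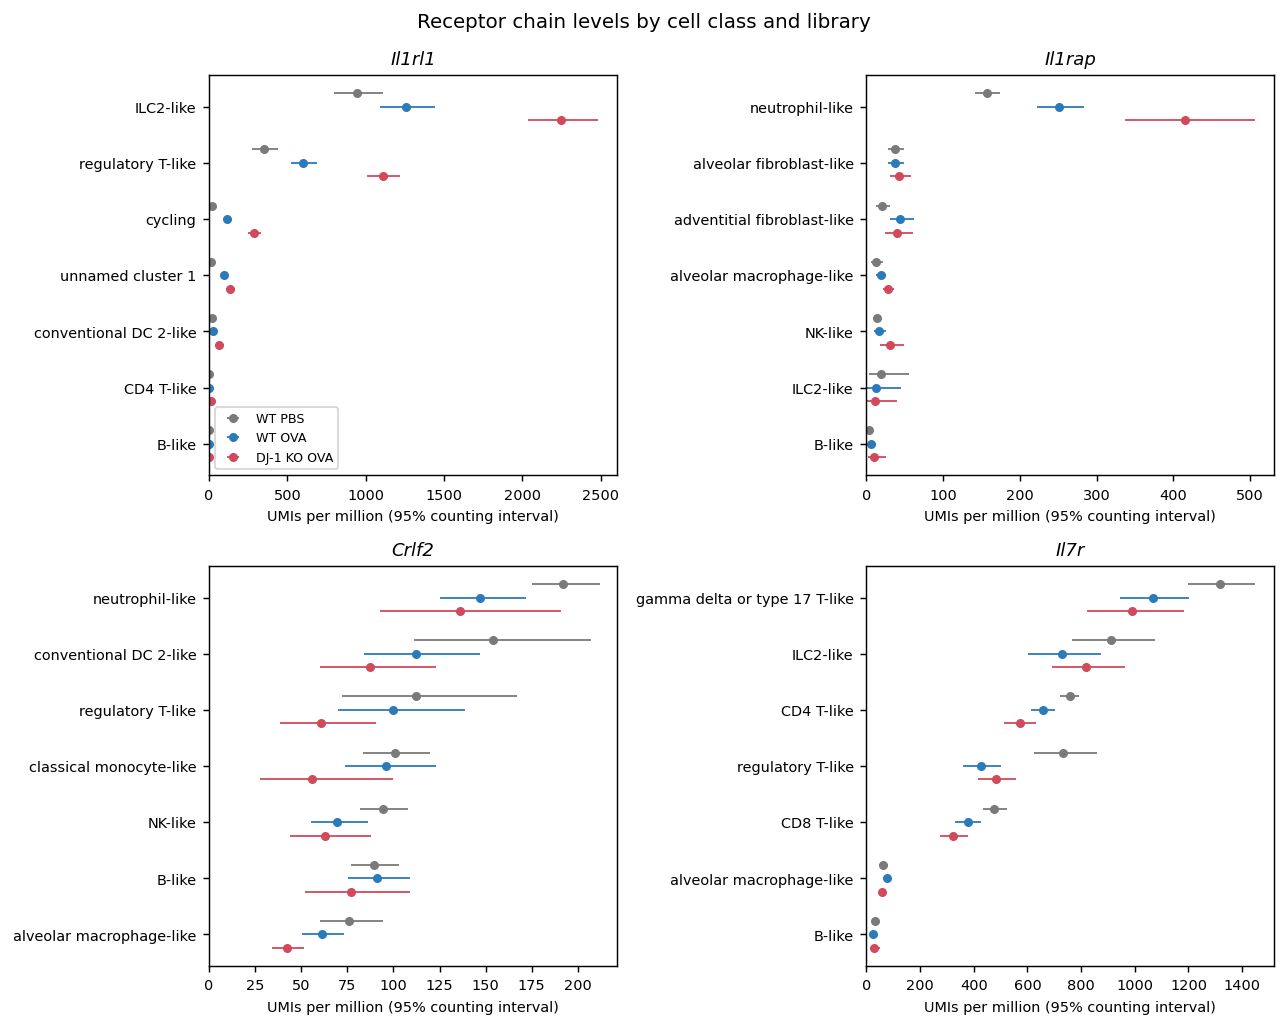
Levels of Il1rl1, Il1rap, Crlf2 and Il7r in CPM (x axes) by cell class (y axes), 1 point per library with its 95% counting interval. ILC2-like cells reached 2249 for Il1rl1 in the knockout, neutrophil-like cells led for Il1rap and Crlf2, and gamma delta or type 17 T-like cells led for Il7r.

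Few genes of the signalling lists passed 2-fold over all kept cells, while the genes listed as induced by alarmins, given below, did so more often. Over all kept cells, 5.26% of all genes did so upward and 3.38% downward in the knockout against WT OVA, and 3.17% and 2.42% in WT OVA against WT PBS. Of 19 genes of IL-33 receptor signalling (Myd88, the IRAK kinases, NF-kB and p38 genes), 0 passed 2-fold over all kept cells in either comparison, with median log2 ratios of 0.03 and 0.02 beside 0.02 and 0.07 for all genes. In ILC2-like cells 0 of 11 measured did so in the knockout against WT OVA. The 8 inhibitors of that signalling, such as Tnfaip3 and Nfkbia, likewise had 0 past 2-fold over all cells. In the knockout against WT OVA, 1 of 7 measured was higher in ILC2-like and 2 of 7 in alveolar type 2-like cells, against 7.48% and 7.93% of all genes there. Of 15 genes of TSLP and IL-7 signalling, 2 were called higher over all kept cells in the knockout, the feedback inhibitors Socs1 at 2.79 (2.47 to 3.15) and Cish at 2.11 (1.98 to 2.24). Thymocyte-like cells were 0.169% of WT OVA and 19.0% of knockout cells, and their part in these ratios was not tested. In ILC2-like cells 0 of 11 were called in that comparison. In alveolar type 2-like cells 4 of 15 were higher and 0 lower, against 7.93% and 2.7% of all genes there. In WT OVA against WT PBS 1 was called lower over all kept cells, the survival gene Bcl2, at 0.454 (0.429 to 0.481). The 3 genes of IL-25 signalling had 0 called. Among other IL-1 family genes, Il1a, an alarmin of the same family, was higher over all kept cells of WT OVA than of WT PBS. Its levels were 93.1 against 20.2 CPM, a ratio of 4.62 (4.18 to 5.1). Il1a was a leading gene of cluster 22, an alveolar macrophage-like cluster. Alveolar macrophage-like cells made up 1.53% of the saline library and 3.17% of WT OVA, and their part in the Il1a ratio was not tested. In the knockout, Il18 and the decoy receptor Il1r2 were lower than in WT OVA, at 0.387 (0.313 to 0.474) and 0.415 (0.384 to 0.447). Il1r2 was mainly a transcript of neutrophil-like cells, which were 15.8%, 10.9% and 4.82% of kept cells. Within them Il1r2 was higher in the knockout, at 2979 against 2408 CPM, a ratio of 1.24 (1.14 to 1.35). Il18 outside neutrophil-like cells stood at 0.369 (0.298 to 0.454) of WT OVA, on 118 against 416 UMIs. Neutrophil-like cells held only 3 and 5 Il18 UMIs in these libraries, so leaving them out could change that ratio little. The part of other classes in it was not tested.

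A list of 15 genes was drawn up as induced by alarmins in type 2 lymphocytes. Gata3, Rora and Klrg1 of this list were also markers used to name ILC2-like cells. Over all cells, 14 of the 15 were measured. In the knockout against WT OVA 5 of them were called higher and 0 lower, beside the 5.26% and 3.38% of all genes. Their median log2 ratio was 0.68 against 0.07 for all genes. Il13 was counted 11 times in WT OVA and 169 times in the knockout, a ratio of 20.7 (11.3 to 42.2). Of these UMIs, 2 and 106 lay in regulatory T-like cells without a Foxp3 UMI, in 45 and 65 cells. Il4 was counted 8 and 49 times, a ratio of 8.24 (3.87 to 20.1). Il10, Gata3 and Bcl11b were at 2.12, 2.51 and 3.15. The last pair are expressed in thymocytes too, a class that was 19.0% of knockout cells. Within ILC2-like cells the list was mixed, with 3 of 11 called higher and 1 lower, against 7.48% and 4.64% of all genes there. Il13 stood at 121, 31.1 and 161 CPM on 19, 5 and 29 UMIs, so WT OVA was the low library and the knockout was near WT PBS. The ratio of knockout to WT OVA was 5.16 (1.98 to 17.1), and all 5 UMIs of WT OVA lay in 1 of its 56 cells. Of the 19 and 29 UMIs of WT PBS and the knockout, 11 and 15 lay in 1 cell each. Without the top cell of each library, 8, 0 and 14 UMIs were left. Also higher in the knockout were Klrg1, an inhibitory receptor, at 2.92 (1.21 to 8.07) and Pparg at 2.89 (1.27 to 7.39), while Ccl1, a chemokine, was lower at 0.473 (0.279 to 0.785), or 0.506, just short of the limit, without the cell of each library with most Ccl1. Il5 stood at 311 CPM in WT OVA and 183 CPM in the knockout, a ratio of 0.587 (0.367 to 0.93) that did not pass the 2-fold limit. Without the cell of each library with most Il5, which held 18 of 50 and 12 of 33 UMIs, it was 0.584 (0.32 to 1.04). In WT OVA against WT PBS, 3 of 13 were called higher and 1 lower over all cells, against 3.17% and 2.42% of all genes. The higher were Il10 at 3.96 (2.9 to 5.49), Il6 at 3.15 (2.93 to 3.38) and Areg at 2.17 (2.04 to 2.31). Ccl1 was lower at 0.329 (0.233 to 0.457). Il10 was a leading gene of the regulatory T-like cluster, which was 0.778% of WT PBS and 1.89% of WT OVA cells. The part of class shares in these WT OVA to WT PBS ratios was not tested. Within ILC2-like cells, 0 of 11 were called higher and 2 lower, Il13 at 0.257 (0.075 to 0.712) and Ccl1 at 0.304 (0.214 to 0.424), on 35 PBS cells. The median log2 ratio of the list there was -0.19, beside 0.05 for all 2349 genes measured, of which 8.6% were called higher and 4.38% lower.

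The genes whose levels most resembled each member were found over 51 pairs of class and library, which share libraries and depth, by Pearson correlation of log2(CPM + 10) among 13059 genes. For Il33 these were Gja1, a gap junction gene, at 0.92, then Col4a3, Nkd1, Prrg3 and Ptgs1. For Il1rl1 they were the type 2 cytokine genes Il13, at 0.83, and Il5, with Calca, Rbpj and Asb2. Tslp was closest to Clec11a at 0.96, Il1rap to Slc40a1 at 0.92, Crlf2 to Ncf4 at 0.88, Il17rb to Paxbp1 at 0.87 and Il7r to Klk8 at 0.94.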

How the data were processed

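Libraries were made with the Chromium 3′ kit, version 3 chemistry, per the labels' protocols, and aligned with Cell Ranger and STAR to mm10, per the submitters' processing notes. The deposited counts are UMIs per gene and cell barcode. Groups follow the treatment and genotype labels; the WT PBS title also names OVA. Cells under 200 genes or over 20% mitochondrial UMIs were dropped. Scrublet (in scanpy 1.11.5, Python 3.11.15) removed 57, 162 and 3 doublets (saline, ovalbumin, knockout). Of each barcode shared by WT PBS and DJ-1 KO OVA the smaller cell was left out. Cells were clustered by Leiden (resolution 2, 2000 variable genes without the members, 30 components, 15 neighbours) into 42 clusters, named "-like" from marker lists with at least 3 markers detected; names rebuilt here may differ from the authors'. Classes needed 50 cells in a library to be compared. Most values from fewer are given with their cells or UMIs. UMIs were summed per class and library, with exact Poisson intervals for levels, Clopper-Pearson intervals for shares and exact conditional binomial intervals for ratios; interval width follows from UMIs counted and covers counting error only. The ratio code was tested on simulated counts. Named genes are the members, Park7, class markers, the 2 highest and 2 lowest genes of each pathway list over all kept cells and in ILC2-like cells, and the 5 genes most like each member; other genes were named after their values were seen. Members and lists were chosen with earlier results of these data known. Alternatives covered cell filters, doublets, shared barcodes, clustering resolution, weighting, thinning, scaling and thymocyte-like clusters. Coordinates are from RefSeq's GRCm38.p6 annotation.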

Additional observations from a re-analysis of the deposited data

Results flagged for a closer look

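A member had classes that differed in opposite directions between the same libraries, with both intervals clear of 1, in 4 cases, and in none was the difference between classes tested. Il33 in DJ-1 KO OVA against WT OVA was 4.01 in alveolar type 2-like and 0.672 in mesothelial-like cells. In WT OVA against WT PBS it was 2.08 in alveolar fibroblast-like and 0.723 in adventitial fibroblast-like cells. The clusters of adventitial fibroblast-like cells differed in share, with 32 of 171 PBS and 67 of 206 OVA cells in cluster 31, which was low in Il33. In cluster 19 the levels were 200 (166 to 239) and 165 (128 to 210) CPM, with overlapping intervals, and in cluster 28 they were 67.3 and 71.2 CPM. Crlf2 in the knockout against WT OVA was 2.96 in alveolar type 2-like and 0.355 in CD8 T-like cells. Il7r in the knockout against WT OVA was 5.57 in NK-like and 0.491 in conventional DC 2-like cells.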

How the results depend on the processing

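The counts of members past 2-fold, 1 and 3, were the same under all 13 alternatives that gave them. Of 315 recomputed ratios, 285 lay within the interval of the value reported, 28 moved outside it without a change of direction from a called value, and 2 turned: Il7r over all kept cells in the knockout against WT OVA, from 0.889 to 1.3 with both cells of shared barcodes left out and to 1.12 with thinned cells. Thinning moved most, 13 of 27 ratios; it leaves out shallower cells, and it took Il17rb in the knockout to 8.21 over all cells and 8.8 in ILC2-like cells. With thinning, Il33 in alveolar type 2-like cells was 4.67, and with cells weighted alike Il33 over all cells was 2.06. Crlf2 in neutrophil-like cells was 0.527 with at least 500 genes per cell, against 0.924; the cause was not tested. Without thymocyte-like clusters, Il33 was 2.72. A doublet score limit of 0.25 in all libraries, chosen after seeing that only 3 knockout doublets were called, moved 0 of 28 ratios out of their intervals. No replicate could be left out. No paired analysis was possible because each group is 1 library, so the groups share fewer than 2 replicate numbers. Median-of-ratios scaling lowered the knockout ratio in alveolar type 2-like cells to 3.73 for Il33, since the median gene there stood 0.11 higher on the log2 scale. Depth limits Il25, Tslp and Il17rb, with 0, at most 59 and at most 89 UMIs per library.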
